A study of Mus musculus with 8 samples.

Results

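The intermediate mesoderm is the strip of embryonic tissue from which kidney and gonad arise, and its epithelial tube, the nephric duct, sends out the ureteric bud. Osr1 and Osr2, odd-skipped zinc finger factors, and Wt1, a zinc finger factor of the urogenital mesenchyme and its surface epithelium, stand here for the early intermediate mesoderm. Pax2 and Pax8, paired box factors, Lhx1, a LIM homeodomain factor, Gata3, a GATA zinc finger factor, and Emx2, a homeodomain factor, stand for the duct. The 8 genes were taken as a named list from 19356 measured genes, each read by its 1 probe set with exactly 1 gene symbol. In mouse embryos Osr1 is among the earliest of these factors to appear and is needed for the kidney primordium. Pax2 and Pax8 act together to start the duct, with Lhx1 and Gata3 acting after them, and Gata3 keeps Ret, the receptor for GDNF, expressed in the duct. Emx2 is needed in the ureteric bud after it has grown out, and, like Wt1, it is also expressed in the gonad primordium.

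The tissue was the dissected caudal urogenital ridge (mouse, E10.75), and 4 Sox11 knock-out (Sox11-/-) arrays were compared with 4 wildtype arrays, both from animals of mixed genetic background. Sox11 belongs to the SoxC transcription factors. The labels call the replicates independent without saying whether each was 1 embryo or a pool, and they do not say how or in which cells the allele was made. All values are RMA signals on a log2 scale, a change is knockout minus wild type, and the test is limma over all genes with Benjamini-Hochberg adjustment and a threshold of 0.05. These arrays measured a whole dissected piece, so fewer cells of a type and less RNA per cell cannot be told apart.

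The targeted gene, Sox11, had 9.24, 9.13, 8.93 and 9.12 in knockout ridges, against 11.76, 11.81, 11.72 and 11.86 in wild type ridges. The sources used here do not say whether its probes lie in the deleted part. The mean signal of the Y-linked genes Eif2s3y and Kdm5d was 9.87 to 10.0 in knockout replicates 3 and 4 and 10.1 in wild type replicate 1, and 5.37 to 5.54 on the other 5 arrays. Genes taken as markers of duct epithelium (Cdh1, Epcam, Ret, Krt8, Krt18, Cdh16 and Sim1) and of metanephric mesenchyme (Six2, Eya1, Gdnf, Sall1 and Hoxd11) were looked up. Whether they are confined to those cells in the dissected piece was not tested, so their means are no measure of duct or mesenchyme cells alone. Each of these 12 genes had a mean level above the median of all genes. This cannot test the label of the tissue, since all 9 endothelial genes of a later list lay above that median too.

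Of the 8 factors, Osr2 fell, and the other 7 did not pass the test. Lhx1 and Gata3 missed the threshold, at 0.42 (1.34-fold) and 0.25 (1.19-fold), but every knockout array lay above every wild type array. Osr1, Wt1, Pax2, Pax8 and Emx2 overlapped between genotypes. Neither subset moved as a block: 2 of the 3 early factors lay below 0 and 1 above, and 3 of the 5 duct factors lay above 0 and 2 below. The median change was -0.20 for the early factors, 0.08 for the duct factors and -0.0005 for all genes.

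Those counts stand against the whole table as follows. limma called 1 of the 8 factors, where it called 1.44% of all genes. It called 1 of the 8 lower, where it called 1.08% of all genes lower, and 0 of the 8 higher, where it called 0.362% of all genes higher. At an unadjusted p under 0.05, 2 of the 8 were higher and 1 lower, against 7.29% and 9.38% of all genes. The genotypes did not overlap for 3 of the 8, with 2 above and 1 below wild type, where this held for 10.5% of all genes, 4.04% above and 6.47% below.

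**Figure D1:**
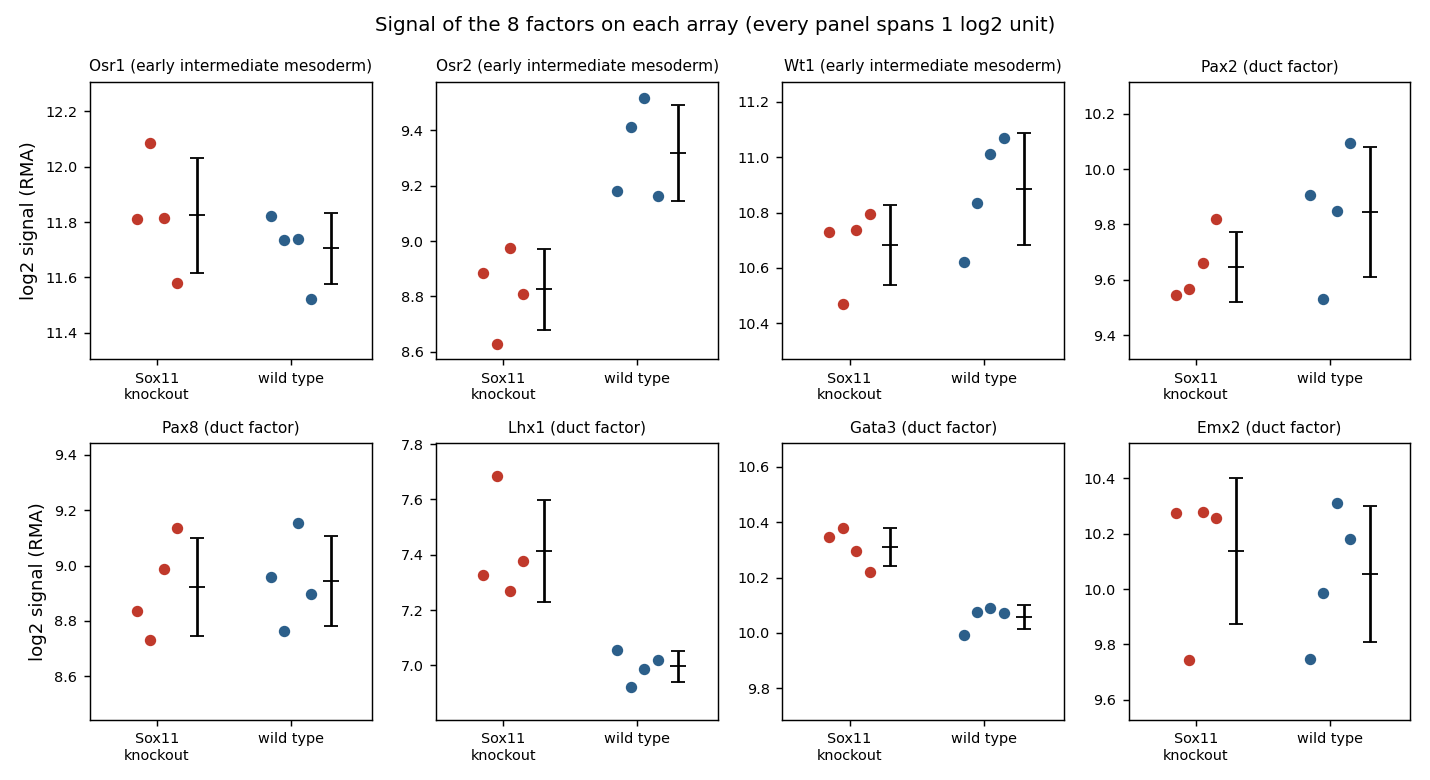
RMA log2 signal (vertical axis) of the 8 factors on each of the 4 knockout (left) and 4 wild type (right) arrays, in replicate order, with the mean and SD beside each group as a bar; each panel spans 1 log2 unit. Osr2 lies wholly lower and Lhx1 and Gata3 wholly higher in knockout ridges, while the other 5 overlap, and Emx2 has 1 knockout array at 9.74.

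Osr2, which marks mesonephric mesenchyme, had 8.89, 8.63, 8.98 and 8.81 in knockout ridges, against 9.18, 9.41, 9.52 and 9.16 in wild type ridges. The highest knockout array lay 0.19 below the lowest wild type array. Its mean was 8.83 ± 0.15 in knockout and 9.32 ± 0.17 in wild type ridges (SD, n = 4 each), so it changed by -0.49 (SE 0.10, 95% interval -0.72 to -0.27), which is 1.41-fold lower (limma adjusted p = 0.0466). The call is close to the threshold: without wild type replicate 4 it held (limma adjusted p = 0.0481), and without any other single array it was lost (0.0598 to 0.131).

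Osr1, the close relative of Osr2, went the other way in its mean and did not pass. It had 11.81, 12.09, 11.82 and 11.58 in knockout ridges, against 11.82, 11.74, 11.74 and 11.52 in wild type ridges. The ranges overlapped, with knockout replicate 2 the highest of all 8 arrays. The change was 0.12 (SE 0.11, 95% interval -0.12 to 0.36, limma adjusted p = 0.604), and with 1 array left out it ran between 0.03 (without knockout replicate 2) and 0.20 (without knockout replicate 4), with 0.06 without wild type replicate 4. Osr1 lies on chromosome 12, as Sox11 does, and the other 7 factors lie on chromosomes 2, 11, 15 and 19 (RefSeq, GRCm38.p6).

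Wt1, whose loss in mice stops kidney formation, had 10.73, 10.47, 10.74 and 10.79 in knockout ridges, against 10.62, 10.83, 11.01 and 11.07 in wild type ridges. Of the knockout arrays 3 lay above the lowest wild type array and all 4 lay below the 3 highest. The change was -0.20 (SE 0.11, 95% interval -0.44 to 0.04, limma adjusted p = 0.376), and it was -0.13 without knockout replicate 2. Wt1os, the divergent transcript beside Wt1, was at -0.26 (SE 0.26, limma adjusted p = 0.647).

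The paired box genes Pax2 and Pax8 had mean changes below 0, and neither passed. Pax2, needed for the duct and its bud, had 9.54, 9.56, 9.66 and 9.82 in knockout ridges, against 9.91, 9.53, 9.85 and 10.10 in wild type ridges. Wild type replicate 2 was the lowest array of all, and every knockout array lay below the 3 other wild type arrays. The change was -0.20 (SE 0.11, 95% interval -0.45 to 0.06, limma adjusted p = 0.412); it was -0.30 without wild type replicate 2 and -0.11 without wild type replicate 4. Pax8, which overlaps with Pax2 in function, had 8.84, 8.73, 8.99 and 9.14 in knockout ridges, against 8.96, 8.76, 9.16 and 8.90 in wild type ridges. These ranges nearly coincide, and the change was -0.02 (SE 0.11), with a 95% interval from -0.26 to 0.21 that leaves room for a fold between 0.837 and 1.16 (limma adjusted p = 0.940). Its sign turned without knockout replicate 1 or 2 or wild type replicate 3 and after a further quantile normalization (0.01 to 0.05).

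Lhx1 and Gata3 were the members that lay higher together, so a promoter window of each is shown. The windows run from 250 bases before to 50 bases after an annotated start (RefSeq, GRCm38.p6). Beside them stands a window of Pax2, which did not lie higher. That window was picked as the first Pax2 window holding the motif searched below. The Pax2 window at chr19:44756656-44756955 did not hold it. RefSeq windows were found for 5 of the 8 factors (7 windows). The core bound by SOX proteins was searched as ACAAAG or ACAATG on both strands, and 2 of the 7 windows held it, both at Pax2; of all 32851 windows, 28.6% held it. A match is a description of letters, and its absence says only that these letters are not in the window. Capitals mark the ACAAAG of Pax2, which begins 122 bases before the start, and in the other windows the base at the annotated start. The windows of Lhx1 and Gata3 had 65.7% and 67.3% G or C with 31 and 22 CpG, against medians of 52.7% and 7 over all windows. This is not particular to them: the Emx2 window had 64.3% with 26 CpG. The Pax2 windows not printed had 61.7% with 23 and 71.7% with 30, and the printed Pax2 window had 54.7% with 7. The Pax8 window had 59.3% with 7.
Lhx1, chr11:84525485-84525784, minus strand: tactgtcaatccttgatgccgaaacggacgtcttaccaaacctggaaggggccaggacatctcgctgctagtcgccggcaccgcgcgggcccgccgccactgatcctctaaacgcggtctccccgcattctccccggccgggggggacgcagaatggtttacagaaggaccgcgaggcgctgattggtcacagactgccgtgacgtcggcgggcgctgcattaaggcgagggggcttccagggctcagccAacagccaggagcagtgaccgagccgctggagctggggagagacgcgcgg
Gata3, chr2:9878551-9878850, minus strand: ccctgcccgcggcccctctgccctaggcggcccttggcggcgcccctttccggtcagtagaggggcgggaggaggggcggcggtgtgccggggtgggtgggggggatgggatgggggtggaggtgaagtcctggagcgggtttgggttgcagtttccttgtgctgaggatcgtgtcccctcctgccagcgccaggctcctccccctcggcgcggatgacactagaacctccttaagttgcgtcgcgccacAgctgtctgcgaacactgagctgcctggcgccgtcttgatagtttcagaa
Pax2, chr19:44746351-44746650, plus strand: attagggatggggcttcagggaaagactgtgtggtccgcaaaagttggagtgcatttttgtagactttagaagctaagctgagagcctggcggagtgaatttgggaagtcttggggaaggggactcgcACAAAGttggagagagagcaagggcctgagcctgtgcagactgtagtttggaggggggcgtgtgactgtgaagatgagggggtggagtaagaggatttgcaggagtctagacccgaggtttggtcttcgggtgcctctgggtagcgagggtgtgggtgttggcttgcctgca

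Lhx1, which in mice is needed to extend the duct, had 7.33, 7.68, 7.27 and 7.38 in knockout ridges, against 7.06, 6.92, 6.99 and 7.02 in wild type ridges. All 4 knockout arrays lay above all wild type arrays, and knockout replicate 2 stood highest. The mean was 7.41 ± 0.18 in knockout and 6.997 ± 0.057 in wild type ridges (SD, n = 4 each), a change of 0.42 (SE 0.09, 95% interval 0.21 to 0.62, limma adjusted p = 0.0577). Lhx1 was the only factor of the 8 below the median level of all genes. It passed when only genes above the 25th percentile of level were tested (limma adjusted p = 0.0453), and with any single array left out it did not pass (0.0676 to 0.145), where its change ran between 0.33 and 0.47.

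Gata3, which in mice prevents ectopic budding and sustains Ret, had 10.35, 10.38, 10.30 and 10.22 in knockout ridges, against 9.99, 10.08, 10.09 and 10.07 in wild type ridges. The genotypes did not overlap. Its mean was 10.31 ± 0.07 in knockout and 10.06 ± 0.04 in wild type ridges (SD, n = 4 each), a change of 0.25 (SE 0.06, 95% interval 0.11 to 0.39, limma adjusted p = 0.0845). The SDs were the smallest of the 8 factors in both genotypes. It passed among genes above the median level (limma adjusted p = 0.0421) and with trended and robust moderation (0.0444), and with any single array left out it did not pass (0.104 to 0.209).

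Emx2 had 10.27, 9.74, 10.28 and 10.26 in knockout ridges, against 9.75, 9.99, 10.31 and 10.18 in wild type ridges. The 3 other knockout arrays lay within 0.02 of each other and knockout replicate 2 lay 0.51 below them. The change was 0.08 (SE 0.15, 95% interval -0.24 to 0.41, limma adjusted p = 0.811), 0.21 without knockout replicate 2 (0.408) and -0.02 without wild type replicate 1 (0.955).

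As means over each subset, given as deviations from the wild type mean and with no test, the 3 early factors lay between -0.24 and -0.13 in knockout ridges, against -0.09 to 0.12 in wild type ridges, without overlap. This mean includes Osr2, at -0.49 the only 1 of these 3 without overlap by itself, beside Wt1 at -0.20 and Osr1 at 0.12. It is therefore no separate result for the subset, and the share of other 3-gene means without overlap was not computed. The 5 duct factors lay between 0.04 and 0.18 in knockout ridges, against -0.12 to 0.10 in wild type ridges, with overlap.

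**Figure D2:**
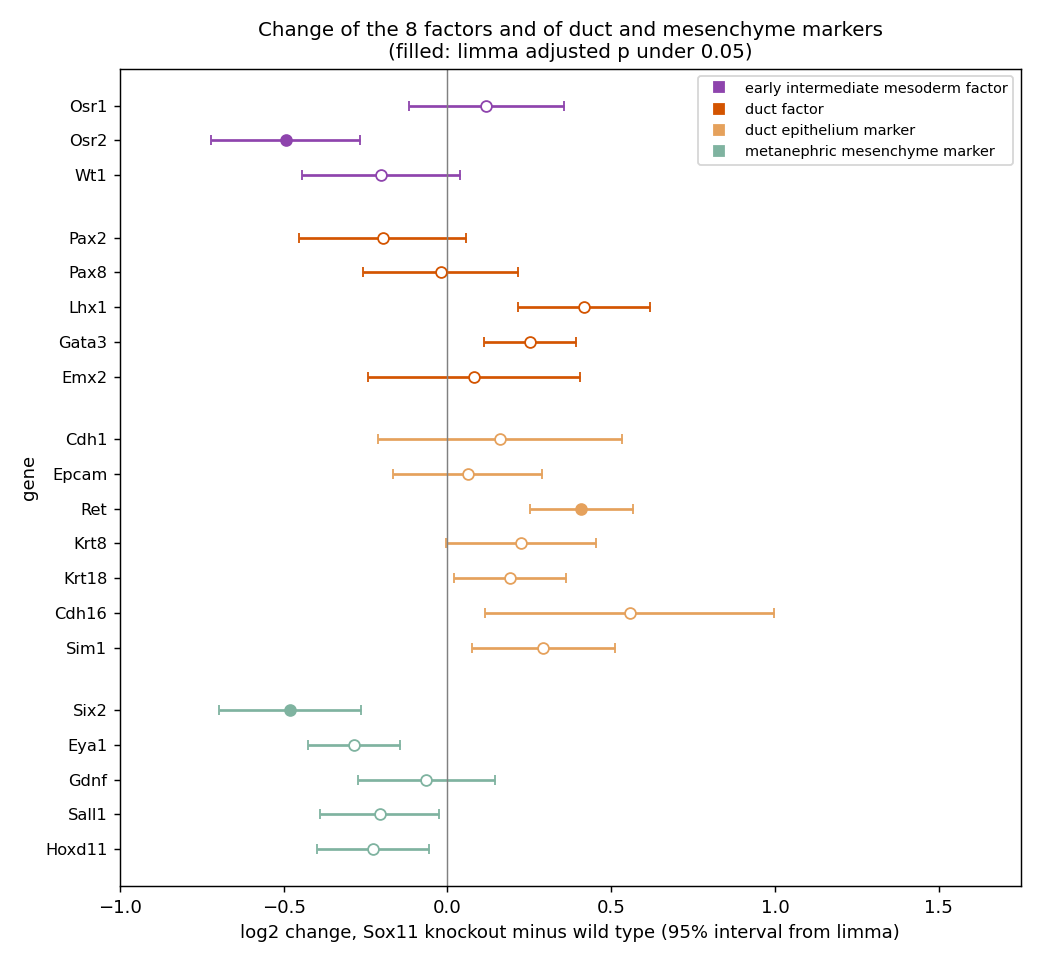
Change in log2 signal (horizontal axis, knockout minus wild type, with the 95% interval from limma) of the 8 factors and of 7 duct epithelium and 5 metanephric mesenchyme markers (vertical axis). Filled points passed an adjusted p under 0.05; Osr2, Ret and Six2 are filled, all 7 duct markers lie above 0 and all 5 mesenchyme markers lie below 0.

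Around the 8 factors, epithelial genes of the duct lay mostly higher and genes of the nephrogenic mesenchyme mostly lower in knockout ridges. Of 24 measured duct and ureteric bud genes other than the members, Ret and Ros1, a receptor tyrosine kinase, rose (0.41 and 0.76, limma adjusted p = 0.0220 and 0.0302). Etv5, an ETS factor that RET signalling switches on, was lower by 0.40 log2 units (limma adjusted p = 0.0368). Another 21 did not pass. The median change of these 24 was 0.17, with 19 above 0, where 49.9% of all genes lay above 0. Calb1, a calcium-binding protein of the duct, was at 0.63 (limma adjusted p = 0.0624). Of 18 measured nephrogenic cord and metanephric mesenchyme genes, Six2, which keeps nephron progenitors from differentiating, was lower by 0.48 log2 units (limma adjusted p = 0.0437), 17 did not pass, and 14 lay below 0 (median -0.13). Eya1, a transcriptional coactivator, was at -0.28 (limma adjusted p = 0.0609) and Meox1 at -0.94 (0.0517). These calls rest on few arrays: with each of the 8 arrays left out in turn, Ret passed in 3 fits (limma adjusted p 0.0363 to 0.0764), Ros1 in 2 (0.0220 to 0.101), and Etv5 (0.0439 to 0.101) and Six2 (0.0323 to 0.122) in 1 each, that without wild type replicate 1. Under the 11 alternatives planned for all arrays Ret passed in 10, Ros1 in 9, Six2 in 7 and Etv5 in 5, with adjusted p-values of up to 0.0692 for Ret, 0.139 for Ros1, 0.134 for Six2 and 0.0979 for Etv5 (limma). Etv5 did not pass with the replicate block or when its 2 probe sets were averaged.

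The 7 duct epithelium and 5 metanephric mesenchyme markers are parts of the lists of 24 and 18 genes above. These longer lists are less uniform: 5 of the 24 lay below 0 (down to -0.54), and 4 of the 18 lay above 0 (up to 0.19). The mean log2 signal over the 7 duct epithelium markers lay between 9.32 and 9.47 in knockout ridges, against 8.94 to 9.24 in wild type ridges, without overlap. That over the 5 metanephric mesenchyme markers lay between 9.78 and 9.89 in knockout ridges, against 10.03 to 10.20 in wild type ridges, again without overlap. These means include genes without overlap by themselves, Ret and Sim1 for the duct and Six2 and Eya1 for the mesenchyme. The lists were chosen with earlier results of these data known, and the share of other list means without overlap was not computed. The part of the shifts of both marker means in the values of Osr2, Lhx1 and Gata3 was not tested. Pax2 (-0.20) and Pax8 (-0.02) lay below the smallest change among the 7 duct markers (0.06, Epcam). Emx2 (0.08), Gata3 (0.25) and Lhx1 (0.42) lay within the range of these markers, where the largest was Cdh16 (0.56). Pax2 lay within the range of the 5 metanephric mesenchyme markers (-0.48 to -0.06), and Pax8 did not. With the duct marker mean as a covariate, an alternative chosen after seeing the data, Lhx1 was at 0.43, Gata3 at 0.31, Pax2 at -0.48, Pax8 at -0.35 and Osr2 at -0.55, and 0 of the 8 passed. Since that mean does not overlap between genotypes, the fit has little left to tell them apart by, and over all genes limma called 1 higher and 5 lower in it.

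**Figure D3:**
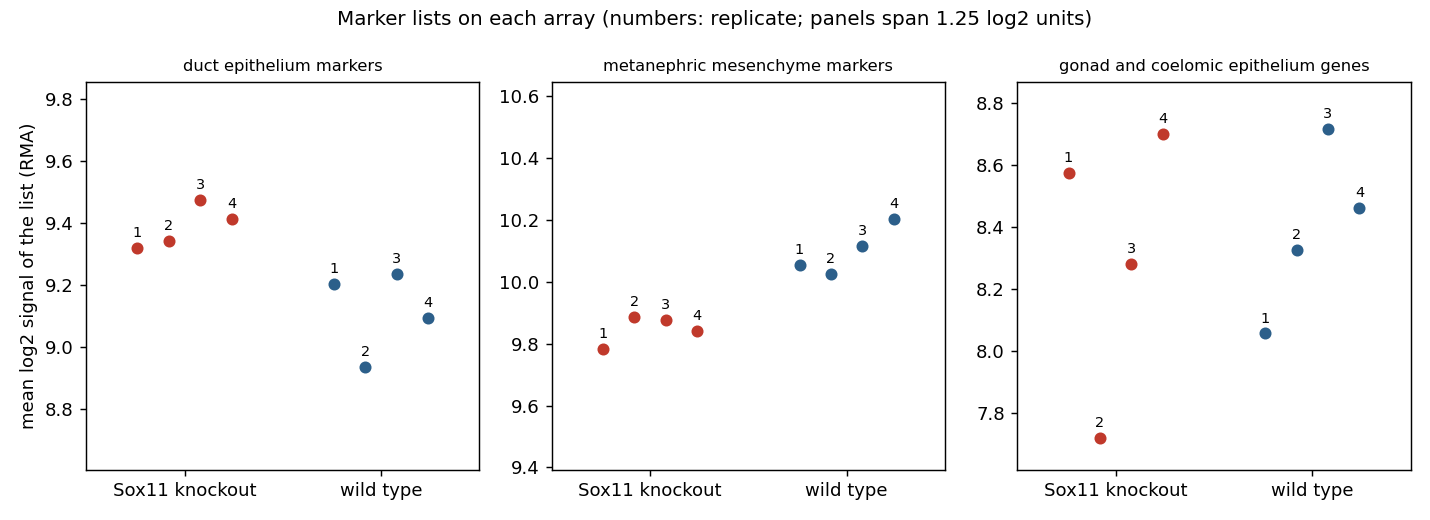
Mean log2 signal (vertical axis) of 7 duct epithelium markers, 5 metanephric mesenchyme markers and 12 gonad and coelomic epithelium genes on each array, knockout left and wild type right, with the replicate number above each point. The duct and mesenchyme means do not overlap between genotypes; the gonad mean does, and is lowest in knockout replicate 2 (7.72).

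Reported targets and upstream signals of the factors showed few calls. Of 11 measured genes reported as targets, Ret rose and 10 did not pass, with a median change of -0.03. Sulf1, a heparan sulfate sulfatase reported as a Wt1 target, was at 0.44 (limma adjusted p = 0.0807). Of 14 genes for signals and factors acting before the duct or on it, limma called 0, with 1 higher and 0 lower at an unadjusted p under 0.05, and a median of 0.01. The 1 was Wnt5a at 0.27 (limma adjusted p = 0.128), while Aldh1a2, which makes retinoic acid, was at -0.12 (0.402), Fgf8 at -0.20 (0.308) and Acvr1b at -0.15 (0.365). Among 9 close relatives of the members limma called 0, with 1 higher at an unadjusted p under 0.05 (Emx1, 0.21, limma adjusted p = 0.222). Gata1 was at -0.13 (limma adjusted p = 0.493), Pax5 at 0.11 (0.543) and Gata4 at -0.22 (0.766), and 6 of the 9 lay below the median level of all genes.

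Between arrays of 1 genotype the factors did not vary as a single group. Deviations from the genotype mean were compared over the 8 arrays in 28 pairs of factors, as a description, since all pairs share the same RNA samples. The highest pair was Wt1 with Emx2 (Pearson's r = 0.94, Spearman's rho = 0.71), which remained at 0.93 without knockout replicate 2 and was 0.72 without both knockout replicate 2 and wild type replicate 1. Osr1 ran against Wt1 (r = -0.80, rho = -0.67) and against Emx2 (r = -0.72, rho = -0.40), and Lhx1 against Osr2 (r = -0.76, rho = -0.71). Lhx1 with Gata3, which share their direction between genotypes, had r = 0.33 (rho = 0.14), and this sign rests on 1 array, since r was -0.26 without knockout replicate 2. Pax2 with Pax8 had r = 0.57 (rho = 0.60). Without the 2 arrays farthest from the median of 1 factor of the pair, Osr1 with Wt1 had r = -0.80, Osr1 with Emx2 -0.54, Lhx1 with Osr2 -0.62, Pax2 with Pax8 0.76 and Lhx1 with Gata3 -0.39.

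The same deviations were set beside the means of 9 marker lists (72 pairs). Emx2 and Wt1 followed the 12 gonad and coelomic epithelium genes (r = 0.92 and 0.85, rho = 0.69 and 0.76), and Osr1 ran against them (r = -0.79, rho = -0.74). That list mean was 8.58, 7.72, 8.28 and 8.70 in knockout ridges, against 8.06, 8.33, 8.72 and 8.46 in wild type ridges. It was lowest within each genotype in knockout replicate 2 and wild type replicate 1, the same arrays where Emx2 and Wt1 were lowest. Its part in the values of Emx2 and Wt1 was not tested beyond using it as a covariate, chosen after seeing the data, where Emx2 was at 0.13, Wt1 at -0.17, Osr2 at -0.47 (limma adjusted p = 0.0414) and Lhx1 at 0.40 (0.0459). Both arrays also had the highest mean of 9 gut and cloaca endoderm genes (6.72 and 6.65, where the 6 other arrays had 6.14 to 6.41). Osr2 ran against that list (r = -0.91, rho = -0.98) while Lhx1 ran with it (r = 0.83, rho = 0.74). Emx2 (r = -0.88, rho = -0.83) and Wt1 (r = -0.74, rho = -0.45) ran against the gut list too. All 9 gut and cloaca genes lay below the median level of all genes. Pax2 ran against the 9 lateral plate and limb mesenchyme genes (r = -0.91, rho = -0.95) and Osr1 with them (r = 0.81, rho = 0.62). Of the duct factors, Pax8 and Pax2 followed the duct epithelium markers within genotypes (r = 0.78 and 0.60, rho = 0.76 and 0.55). Emx2, Lhx1 and Gata3 had r = 0.22, -0.03 and -0.39 with these markers (rho = 0.38, 0.19 and -0.43). For Pax2 this was not particular to the duct, since it also ran with the metanephric mesenchyme markers (r = 0.67, rho = 0.57). Without the 2 arrays farthest from the median of the list mean, several of these values were smaller: r was -0.38 for Osr1 with the gonad list, 0.40 for Osr1 with the limb list, 0.49 for Lhx1 with the gut list and 0.26 for Pax2 with the duct markers. With the duct markers Emx2 then had -0.05, Lhx1 -0.33 and Gata3 -0.72. Pax2 with the metanephric mesenchyme markers then had 0.009. With the gut list Emx2 then had -0.17 and Wt1 0.51. The values of Emx2 and Wt1 with the gonad list (0.90 and 0.80), Osr2 with the gut list (-0.99), Pax2 with the limb list (-0.79) and Pax8 with the duct markers (0.61) kept their sign at over 0.6 in size.

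**Figure D4:**
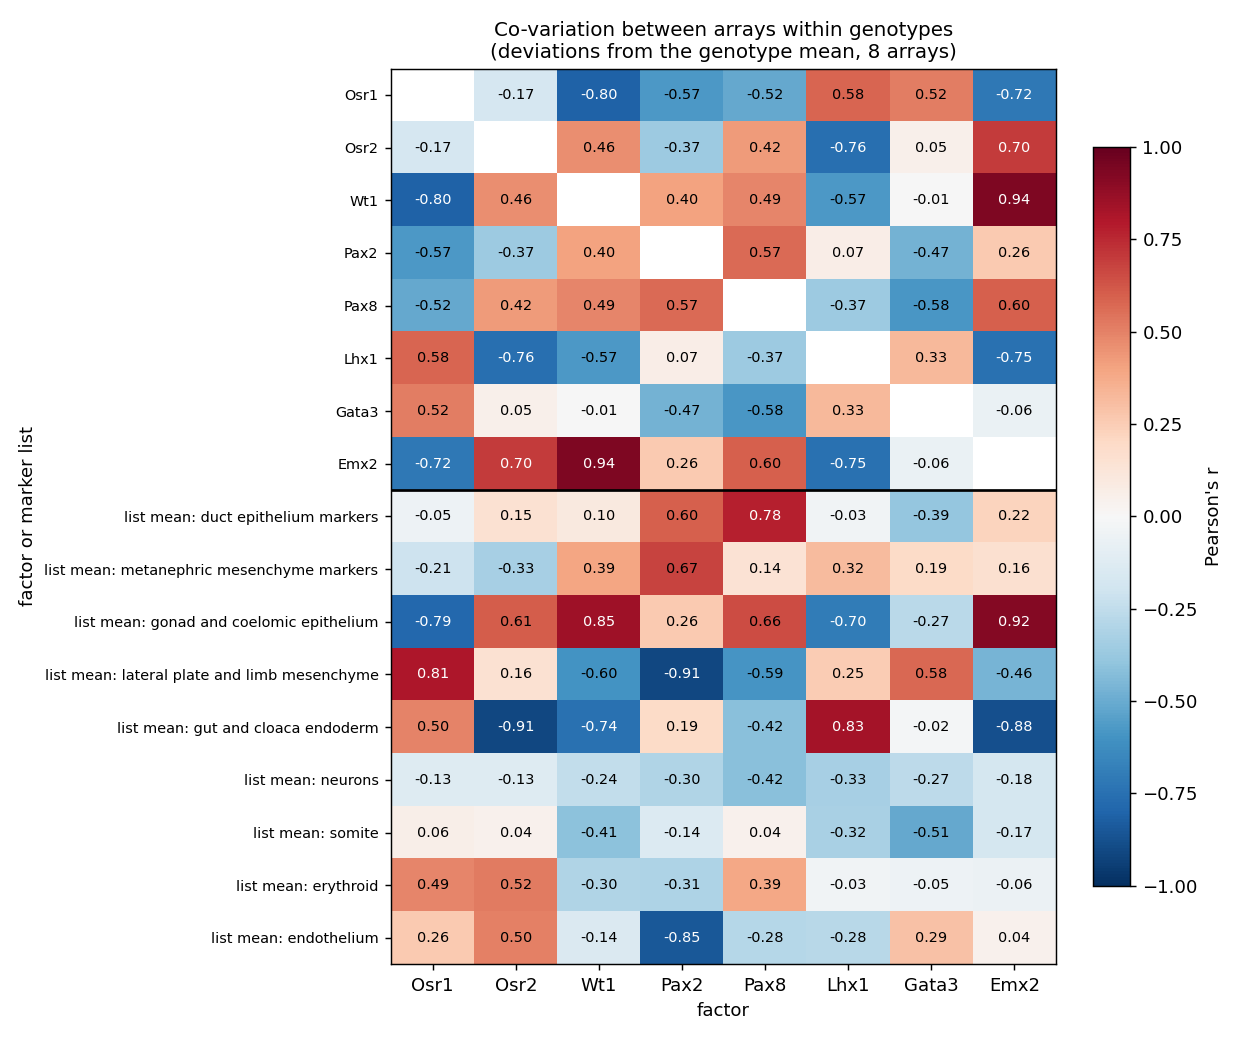
Pearson's r, by colour and number, of deviations from the genotype mean over the 8 arrays, for each factor (columns) against the 7 other factors and the means of 9 marker lists (rows). Wt1 and Emx2 share the highest value between factors (0.94) and run with the gonad and coelomic epithelium list, whereas Lhx1 and Gata3 have values near or below 0 with the duct epithelium markers.

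By the same measure, among 9678 genes above the median level, the gene most like each member was Fancd2 for Osr1 (r = 0.996), Ttc28 for Osr2 (0.979), Dcn for Wt1 (0.989), Nlrc5 for Pax2 (0.997), Dele1 for Pax8 (0.984), Actr3 for Lhx1 (0.946), Trim37 for Gata3 (0.973) and Sdf2 for Emx2 (0.982). Between 9 (Lhx1) and 79 (Emx2) genes had r over 0.9 with a member over these 8 arrays. A search of 9678 genes over 8 arrays finds high values between unrelated genes too, and their expected number was not computed.

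Markers of other tissues in the dissected piece overlapped between genotypes as list means in all 7 lists. Of 12 gonad and coelomic epithelium genes, Cbx2, a Polycomb gene also active outside the gonad, fell (-0.48, limma adjusted p = 0.00648) and 11 did not pass. Of 14 neuronal genes Dcx fell (-0.93, limma adjusted p = 0.0384), and 13 did not pass, with list means of 7.16 to 7.36 in knockout and 7.25 to 7.49 in wild type ridges. In the neuronal list 7 of the 14 lay above 0, and 8 of the 14 were below the median level of all genes. Of 11 somite genes Uncx and Meox2 fell (-0.88 and -0.50, limma adjusted p = 0.0148 and 0.0117), with list means of 6.80 to 6.99 in knockout and 6.88 to 7.12 in wild type ridges. In the somite list 7 of the 11 lay above 0 (median change 0.08), and 9 of the 11 were below the median level of all genes. With each of the 8 arrays left out in turn, Cbx2 and Meox2 passed in all 8 fits, Uncx in 7 (limma adjusted p = 0.0505 without knockout replicate 1) and Dcx in 1, that without knockout replicate 3 (0.0139 to 0.113). Under the same 11 alternatives Cbx2 passed in all 11, Uncx and Meox2 in 10 each, both lost without moderation (0.109 and 0.0646), and Dcx in 8 (up to 0.155). limma called 0 of 9 lateral plate and limb genes, 0 of 9 gut genes and 0 of 9 endothelial genes, none of which had an unadjusted p under 0.05. It called 0 of 10 erythroid genes. At an unadjusted p under 0.05, 5 of these 10 were lower, against 9.38% of all genes. In the erythroid list 9 of the 10 lay below 0 (median change -0.27), with list means of 8.59 to 8.91 in knockout and 8.65 to 9.27 in wild type ridges.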

How the data were processed

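The submitters' processing notes name RMA and Partek. RMA corrects background, quantile-normalizes the arrays and summarises each probe set. The sources used here give neither versions nor settings nor a filter. The table deposited by the authors holds log2 values for 27478 probe sets, and the log2 scale was inferred from those values (4.3 to 14.62, array medians 7.29 to 7.31). Quantile normalization hides a shift of all transcripts together. The number of arrays limits the precision.

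Of the probe sets 21103 had exactly 1 symbol in the platform annotation, updated through RefSeq identifiers of GRCm38.p6. The brightest probe set per gene was kept, which gave 19356 genes with no filter on level. The comparison of genotypes used limma 3.58.1 (R 4.3.3; lmFit and eBayes with no trend, a single genotype term, two-sided). Figures were drawn with matplotlib 3.10.9. When tested on simulated data for the same genes and arrays, 67% of 100 genes changed by 0.5 and 96% of 100 changed by 1 were recovered. The simulated noise was normal and independent between genes, whereas genes on these arrays vary together, so recovery in the real data may differ.

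The members, the lists and the rule for named genes were chosen with earlier results of these data known. The rule took the 8 factors, Sox11, list genes past the threshold or among the 4 lowest p of their list (2 for markers), and the genes most like each factor; the text names a choice of them. The other genes given with values (Epcam and Cdh16, as ends of a range) were chosen after their values were seen. A p-value here sets the difference between genotypes against the spread between arrays of a genotype. Whether that is a spread between embryos or between pools is not known.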

Additional observations from a re-analysis of the deposited data

Results flagged for a closer look

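Within-genotype outliers were sought in 16 groups of 4 arrays, the 8 factors in each genotype, by Dixon's ratio of the gap to the nearest array over the whole range, against its critical value for groups of 4. Chance alone gives about 5% of such groups. In the knockout ridges Emx2 in replicate 2 stood at 9.74, against 10.26 to 10.28 on the other 3 knockout arrays (ratio 0.961). In the wild type ridges Gata3 in replicate 1 stood at 9.99, against 10.07 to 10.09 on the other 3 wild type arrays (ratio 0.833). Knockout replicate 2 was also the lowest knockout array for Osr2, Wt1 and Pax8 and the highest for Osr1, Lhx1 and Gata3.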

How the results depend on the processing

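The 8 factors were recomputed under 11 alternatives planned for all arrays and 2 added after seeing the data (Lhx1 is absent where only genes above the median level are tested), and with each array left out. Osr2 passed in 7 of the 13 and lost its call after a further quantile normalization (limma adjusted p = 0.0546), with every probe set tested (0.0659), without moderation (0.141), with the replicate block (0.0755), with Y-linked signal as covariate (0.0822) and with the duct marker mean (0.538), which each left 0 members lower. Its change stayed between -0.55 and -0.43 throughout. 1 member was higher in each of 4 alternatives: Lhx1 among genes above the 25th percentile (0.0453) and with the gonad list mean as a covariate (0.0459), Gata3 among genes above the median level (0.0421) and with trend and robust moderation (0.0444). Wt1, Pax2 and Osr1 kept their sign and passed in none of the 13. Pax8 turned sign after a further quantile normalization (adjusted p = 0.973), with the gonad list mean (0.997), and without knockout replicate 1 (0.985) or 2 (0.868) or wild type replicate 3 (0.855), and Emx2 with the duct marker mean (0.981) and without wild type replicate 1 (0.955). The causes were not tested. With 1 array left out, adjusted p-values of Pax8 ran over 0.766 to 0.985 and those of Emx2 over 0.408 to 0.955.

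With 1 array left out, Osr2 had adjusted p-values of 0.0481 to 0.131, the members lower were 0 to 1, the genes higher 17 to 55 (70 with all arrays) and the genes lower 88 to 192 (209 with all arrays). Genes higher were 41 with every probe set tested, 7 without moderation, 33 with the Y-linked signal and 1 with the duct marker mean, and genes lower were 48 without moderation, 117 with the replicate block, 115 with the Y-linked signal and 5 with the duct marker mean. The replicate numbers, shared by both genotypes in the labels, showed no sign of pairing the arrays. Deviations of same-numbered arrays correlated at -0.165 to 0.09, with 0 of 4 over 0.1. Of the 4 knockout and the 4 wild type arrays, 1 each correlated best with its own number. With 4 arrays per genotype these values cannot tell whether same-numbered arrays shared a litter or day. The block changed no other call among the members.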
